A study of Homo sapiens with 9 samples.

Results

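Transcription factors grouped as squamous lineage factors were followed in RNA-seq of TE13 cells, an established line of human esophageal squamous cell carcinoma (ESCC). They are TP63, SOX2, KLF4, KLF5, FOXA1, GRHL2, GRHL3, ZNF750, PAX9 and TFAP2A, 10 of the 60605 genes in the table. They were chosen by name, with the row of highest mean level taken for each symbol, and each symbol had 1 row. The 9 libraries came from cells given a control siRNA (3 libraries) or an siRNA against PARylator, either siRNA.1 (3) or siRNA.2 (3). PARylator siRNA.1 and siRNA.2 target the same long noncoding RNA, LINC00885, called PARylator, at chr3:196142525-196160893 on the plus strand, and the control libraries share the line and the transfection. The question was how each factor's RNA differed after PARylator siRNA, and whether the siRNAs differed from each other.

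A stratified squamous epithelium renews from a basal layer that TP63 keeps in the epithelial lineage, and cells leaving that layer switch on a differentiation program under KLF4, ZNF750 and GRHL3. SOX2, PAX9 and KLF5 act in the basal and early differentiating cells of the esophagus, and FOXA1 is a factor of endoderm-derived epithelia. SOX2 and TP63 lie on the long arm of chromosome 3, as LINC00885 does, in a region that is often amplified in squamous carcinomas.

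Each library held between 15337917 and 22559998 counts on genes, with the siRNA.2 libraries deepest, at 19213164 or more. LINC00885 was counted 6, 7 and 12 times in the control libraries, 4, 5 and 2 times with siRNA.1, and 2, 0 and 4 times with siRNA.2. Its fall did not pass the test with siRNA.1 (log2 fold change -1.21 ± 0.95 SE, edgeR adjusted p = 0.376) or with siRNA.2 (-2.33 ± 1.01, edgeR adjusted p = 0.0659), so at this depth the libraries check their own labels only weakly. The squamous label was borne out in part by its markers. Of 13 squamous markers, 12 had a mean above 1 FPKM in the control libraries, among them SFN at 305 FPKM, KRT17 at 161 and KRT5 at 142, while KRT4 was at 0 in every condition. Simple-epithelial keratins were also abundant, with KRT18 at 451 FPKM and KRT7 at 434. These markers were named by their level, after their values were seen. FPKM here is the fragment count of a gene scaled to exon length and to how many counts the library held on genes.

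The stretch just before the RefSeq transcription start is shown for SOX2, GRHL3 and KLF4, the first 2 among the factors that fell most and the last the one that rose. Windows were from RefSeq on GRCh38.p14, where 8 of the 10 factors had an entry and ZNF750 and GRHL2 did not. Each line gives 250 bases, 5′ to 3′ on the gene's own strand, and the capitals mark matches to the motifs named after the sequences.
SOX2: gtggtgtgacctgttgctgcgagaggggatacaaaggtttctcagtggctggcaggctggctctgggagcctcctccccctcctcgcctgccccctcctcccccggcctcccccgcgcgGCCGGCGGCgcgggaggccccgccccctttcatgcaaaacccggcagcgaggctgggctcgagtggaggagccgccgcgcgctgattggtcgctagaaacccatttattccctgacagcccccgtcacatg
GRHL3: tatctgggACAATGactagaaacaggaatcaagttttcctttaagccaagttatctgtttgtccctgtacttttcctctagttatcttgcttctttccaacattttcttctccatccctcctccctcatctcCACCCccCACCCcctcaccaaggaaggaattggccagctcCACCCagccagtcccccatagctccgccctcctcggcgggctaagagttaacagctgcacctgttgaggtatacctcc
KLF4: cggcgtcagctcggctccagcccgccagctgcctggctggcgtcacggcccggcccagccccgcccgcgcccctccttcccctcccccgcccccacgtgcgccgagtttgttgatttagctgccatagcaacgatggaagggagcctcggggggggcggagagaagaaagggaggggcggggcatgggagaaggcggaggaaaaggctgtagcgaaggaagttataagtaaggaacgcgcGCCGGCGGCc
These lie at chr3:181711675-181711924 on the plus strand, chr1:24319107-24319356 on the plus strand and chr9:107489770-107490019 on the minus strand. The KLF4 stretch lies inside the span the table gives for that gene, since the RefSeq start, 107489769, is downstream of the table's first base on that strand, 107490482. Spellings of motifs of the factors' own families were searched on both strands of each 300-base window, which adds 50 bases after the start. The TFAP2 spelling GCCNNNGGC was found in 2 of the 8 windows, those of SOX2 (position -131 from the start) and KLF4 (-10), and in 23% of all 27305 windows. The KLF spelling CACCC was found in 4 of 8, including 3 times in GRHL3 (-118, -111 and -78), against 58.9% of all windows. The SOX spelling CATTGT was found in GRHL3 (-242) and KLF5 (-58), against 11% of all. The FOXA spelling TGTTTAC and the GRHL spelling AACCNGTT were found in 0 of the 8, and in 3.41% and 1.73% of all windows. No motif spelling contains another, and a match is a description of the letters only. GC content was 63.3% for SOX2, 69% for KLF4 and 53% for GRHL3, beside a median of 58.3% over all windows.

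All 10 factors passed the filter on low values and were tested among 21395 genes. With siRNA.1, 8 of the 10 changed: KLF4 rose, and TP63, SOX2, FOXA1, GRHL3, ZNF750, PAX9 and TFAP2A fell. With siRNA.2, 9 changed: KLF4 again rose, and the same 7 and KLF5 fell. Over all genes tested, 30.3% were called with siRNA.1 (15.0% higher, 15.2% lower) and 30.9% with siRNA.2 (15.8% higher, 15.1% lower). Deeply counted genes were called more often. ZNF750, the shallowest factor, averaged 267 counts, and among the 8879 genes counted at least that deeply 52.2% were called after siRNA.1 and 53.6% after siRNA.2. The median log2 fold change of the 10 was -0.27 with each siRNA, beside 0.00 over all genes tested. The siRNA libraries lay wholly to one side of the control libraries in FPKM for 9 of the 10 factors with siRNA.1, KLF5 overlapping, and for 9 with siRNA.2, GRHL2 overlapping, where 37.7% and 39.6% of all genes did. These shares were not worked out for deeply counted genes alone. Both comparisons use the same 3 control libraries, so they are not independent of each other.

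**Figure D1:**
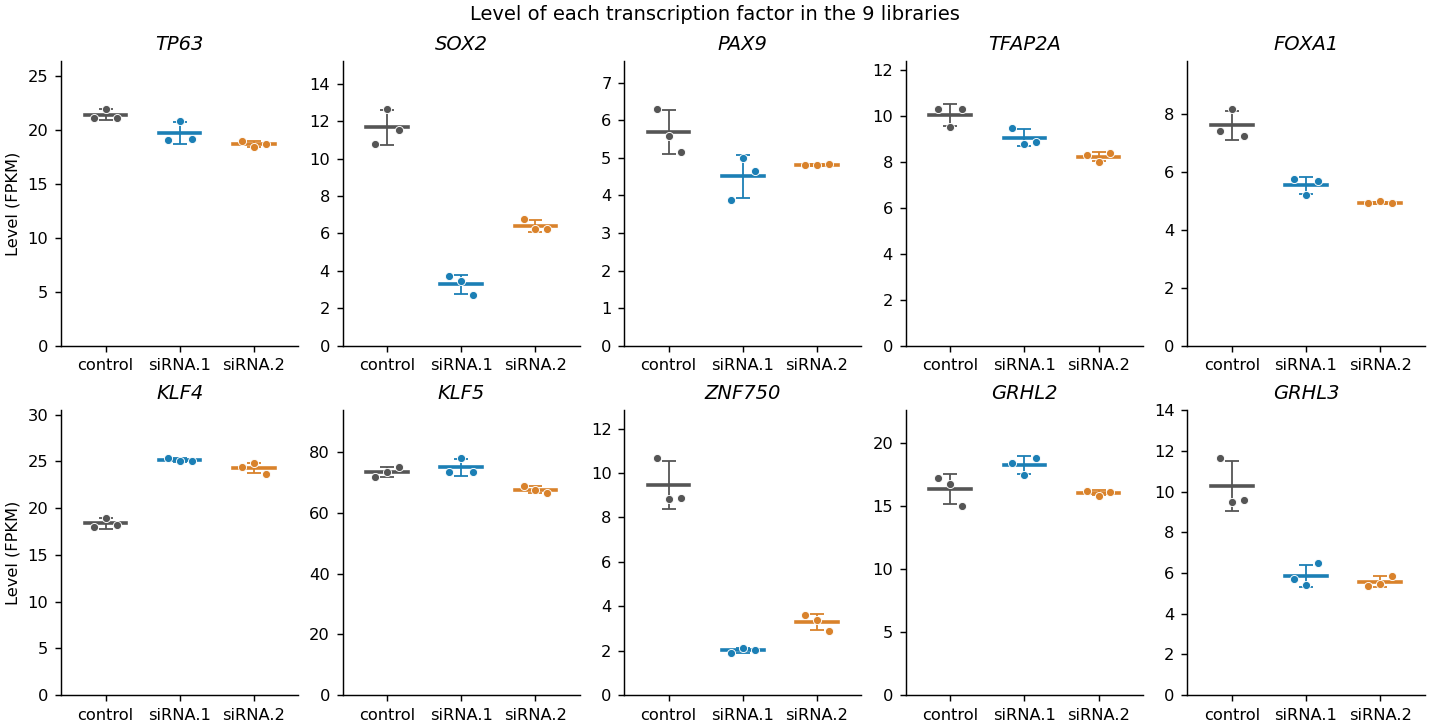
Level of each of the 10 transcription factors in FPKM (vertical axes, each starting at 0) in the 3 control, 3 siRNA.1 and 3 siRNA.2 libraries (points), with the mean (thick line) and SD (error bar). ZNF750, SOX2, GRHL3 and FOXA1 lie lower in every siRNA library than in any control library, and KLF4 lies higher.

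Other measures moved with the siRNAs too. The share of counts on mitochondrial genes was 7.46% to 7.66% in the control libraries, 4.99% to 5.06% after siRNA.1 and 5.54% to 5.56% after siRNA.2. The summed level of 13 squamous markers was 826 to 858 FPKM in the control libraries, 597 to 630 after siRNA.1 and 649 to 660 after siRNA.2. These markers moved both ways. Of the 12 tested, 2 rose and 7 fell after siRNA.1, and 3 rose and 7 fell after siRNA.2. SFN went from 305 FPKM to 180 and 182 and KRT5 from 142 to 40.0 and 55.8, while KRT6A rose from 78.7 to 102 and 118. Of 10 blood cell markers 6 were tested, and 4 rose after siRNA.1 and 5 after siRNA.2, where DESeq2 called 4 and 3. Of all genes tested, edgeR called 15.0% and 15.8% higher. The summed level of the 10 markers went from between 0.750 and 1.58 FPKM to between 5.23 and 5.72 and between 5.45 and 6.61. LYZ rose from 0.317 FPKM to 2.79 and 3.08 (log2 fold changes 3.08 and 3.24, edgeR adjusted p = 7.76e-23 and 3.12e-26), and FCER1G from 0.190 to 1.07 and 1.47. PTPRC, shared by all leukocytes, also rose, from 0.0333 FPKM to 0.153 and 0.147 (log2 fold changes 2.15 and 2.12, edgeR adjusted p = 2.56e-04 and 2.65e-04), while MS4A1, which defines B cells, was at 0 in every condition. Of 11 mesenchymal markers VIM rose with both, from 0.137 to 1.64 and 1.47 FPKM, COL1A1 fell with both, by 0.55 and 0.52 on the log2 scale, and CDH2, at 6.31, 6.86 and 10.2, rose with siRNA.2 and did not pass with siRNA.1 (edgeR adjusted p = 0.327). That list summed to 8.50 to 9.15, 9.59 to 10.5 and 13.1 to 13.8 FPKM. Of 4 endothelial markers the 2 tested fell with each siRNA, VWF from 0.503 FPKM to 0.117 and 0.130 and CDH5 from 0.850 to 0.583 and 0.277, and the list summed to at most 1.54 FPKM in the control libraries, 0.630 to 0.890 after siRNA.1 and 0.420 to 0.550 after siRNA.2. Simple-epithelial markers summed to 1565 to 1606, 1601 to 1723 and 1422 to 1486 FPKM. KRT6A, FCER1G, PTPRC, MS4A1, COL1A1, CDH2, VWF and CDH5 were named after their values were seen. The part of these in the factors' values was not tested. In bulk RNA, fewer cells that express a factor and less RNA per cell cannot be told apart.

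ZNF750, a zinc-finger factor that acts below TP63 in terminal differentiation, fell most. It lies at chr17:82829434-82840022 on the minus strand. It was counted 518, 434 and 500 times in the control libraries, 105, 103 and 112 times with siRNA.1, and 224, 205 and 206 times with siRNA.2. Levels were 10.69, 8.82 and 8.85 FPKM, then 1.87, 2.12 and 2.03, then 3.58, 3.38 and 2.89, so that the 3 conditions did not overlap. The level with siRNA.1 was 20.9% of control (log2 fold change -2.26 ± 0.13, edgeR adjusted p = 1.31e-69), and no other of the 8879 genes counted as deeply had a lower log2 fold change. With siRNA.2 it was 34.4% of control (-1.54 ± 0.12, edgeR adjusted p = 1.52e-38), and 9 of those genes, ZNF750 included, were as far down. Exons of ZNF750 share 222 bases, 7.03% of its exonic length, with TBCD on the opposite strand. The strand setting of the counting was not given in the sources used here. TBCD had 728 to 932 counts in the control libraries, 700 to 877 after siRNA.1 and 890 to 1083 after siRNA.2.

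SOX2, an HMG-box factor of the foregut and of pluripotent cells, fell next. Its single exon is at chr3:181711925-181714436 on the plus strand. Counts were 415, 496 and 519 in the control libraries, 166, 133 and 120 with siRNA.1, and 337, 301 and 353 with siRNA.2. In FPKM these were 10.77, 12.67 and 11.54, then 3.72, 3.44 and 2.74, then 6.78, 6.24 and 6.23. Every siRNA.1 library was below every siRNA.2 library, and these were below every control library. With siRNA.1 SOX2 stood at 27.8% of control (-1.85 ± 0.12, edgeR adjusted p = 1.42e-53), and 5 of the 8879 genes, SOX2 included, were as far down. With siRNA.2 it stood at 54.6% (-0.87 ± 0.11, edgeR adjusted p = 5.09e-15), and 107 genes were as far down. SOX2 lies inside the span of SOX2-OT, a noncoding RNA of the same strand, with 0 exonic bases in common. Counts of SOX2-OT were 14, 21 and 17 in control, 9, 9 and 7 after siRNA.1, and 27, 17 and 26 after siRNA.2, and it was under the filter.

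GRHL3, a Grainyhead factor needed for the skin barrier, fell to about the same degree with each siRNA. It is at chr1:24319357-24364482 on the plus strand in the table. Levels were 11.67, 9.50 and 9.59 FPKM in the control libraries, 5.68, 5.40 and 6.48 with siRNA.1, and 5.37, 5.46 and 5.87 with siRNA.2. The siRNA libraries overlapped each other and lay apart from the control libraries. The level was 56.2% of control with siRNA.1 (-0.83 ± 0.09, edgeR adjusted p = 2.59e-18) and 54.0% with siRNA.2 (-0.89 ± 0.09, edgeR adjusted p = 2.15e-21). Among the 8879 genes, 1.16% and 1.14% were as far down.

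GRHL2, its paralog, which maintains epithelial junction genes, did not follow GRHL3. It is on chromosome 8, at 101492439 to 101669726 on the plus strand. Levels were 17.24, 16.75 and 15.00 FPKM in the control libraries, 18.45, 17.45 and 18.84 with siRNA.1, and 16.21, 15.82 and 16.09 with siRNA.2. Each siRNA.1 library was above each control library, and the siRNA.2 libraries lay within the control range. The log2 fold change with siRNA.1 was 0.14 ± 0.06, just outside the threshold (edgeR adjusted p = 0.051). It passed in 7 of 22 alternatives. Among these were the fits without control library 1 (0.18, edgeR adjusted p = 0.0188), siRNA.1 library 2 (0.17, 0.0171) or siRNA.2 library 1 (0.14, 0.0447). Library totals alone as the scaling was another (0.16, 0.0137). Without control library 3 the log2 fold change was 0.08 (edgeR adjusted p = 0.422). With siRNA.2 the log2 fold change was -0.04 (95% interval -0.14 to 0.07, edgeR adjusted p = 0.706).

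KLF4, a Krüppel-like factor that builds the epithelial barrier, was the one factor that rose. It is at chr9:107484852-107490482 on the minus strand. Counts were 1008, 1084 and 1190 in the control libraries, 1653, 1410 and 1605 with siRNA.1, and 1771, 1745 and 1958 with siRNA.2. Levels were 17.95, 18.99 and 18.16 FPKM, then 25.41, 25.04 and 25.10, then 24.43, 24.80 and 23.70. All siRNA libraries were above all control libraries. KLF4 was 1.35-fold higher with siRNA.1 (0.43 ± 0.06, edgeR adjusted p = 2.05e-11) and 1.31-fold higher with siRNA.2 (0.39 ± 0.06, edgeR adjusted p = 6.51e-10). Of the 8879 genes, 7.48% and 9.29% were as far up. Its exons share 357 bases with a noncoding RNA of the opposite strand that was not analysed here.

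KLF5, the Krüppel-like factor of proliferating basal cells, was the most abundant of the 10 in every library. It is at chr13:73054976-73077541 on the plus strand. Levels were 71.93, 73.62 and 75.03 FPKM in the control libraries, 73.53, 78.27 and 73.53 with siRNA.1, and 68.77, 67.68 and 66.62 with siRNA.2. The siRNA.1 libraries overlapped the control libraries, and the log2 fold change was 0.00 (95% interval -0.08 to 0.09, edgeR adjusted p = 0.986). With siRNA.2 KLF5 stood at 91.3% of control (-0.13 ± 0.04, edgeR adjusted p = 0.0119). That call was lost without control library 3 (-0.11, edgeR adjusted p = 0.0773) and without siRNA.2 library 3 (-0.13, 0.0532).

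FOXA1, a forkhead factor that opens closed chromatin, was examined in the study as a regulator upstream of PARylator. Here its own RNA was measured after PARylator siRNA. It is at chr14:37589552-37596059 on the minus strand. Levels were 7.43, 8.20 and 7.25 FPKM in the control libraries, 5.75, 5.22 and 5.70 with siRNA.1, and 4.92, 4.99 and 4.92 with siRNA.2. The 3 conditions did not overlap, with siRNA.2 lowest. FOXA1 was at 71.6% of control with siRNA.1 (-0.48 ± 0.09, edgeR adjusted p = 2.13e-06) and at 64.4% with siRNA.2 (-0.64 ± 0.09, edgeR adjusted p = 9.57e-11). Among the 8879 genes, 5.50% and 2.87% were as far down.

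TP63, the factor that defines squamous basal cells, fell least among those that fell with both siRNAs. It is at chr3:189631389-189897276 on the plus strand, and the counts per gene do not tell its isoforms apart. Levels were 21.15, 22.01 and 21.13 FPKM in the control libraries, 19.09, 20.87 and 19.18 with siRNA.1, and 18.96, 18.41 and 18.69 with siRNA.2. All siRNA libraries were below all control libraries, by as little as 21.13 against 20.87. It stood at 90.2% of control with siRNA.1 (-0.15 ± 0.05, edgeR adjusted p = 0.013) and at 86.5% with siRNA.2 (-0.21 ± 0.05, edgeR adjusted p = 1.91e-04). The siRNA.1 call was lost without control library 2 (-0.13, edgeR adjusted p = 0.0711), siRNA.1 library 1 (-0.13, 0.0627) or siRNA.1 library 3 (-0.13, 0.0838), and in limma on FPKM (-0.12, adjusted p = 0.065). Among the 8879 genes, 29.5% and 21.8% were as far down.

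TFAP2A, the AP-2 factor that works beside TP63 in surface ectoderm, showed falls of similar size. It is at chr6:10393186-10419659 on the minus strand. Levels were 10.30, 9.51 and 10.32 FPKM in the control libraries, 9.47, 8.79 and 8.88 with siRNA.1, and 8.31, 8.01 and 8.37 with siRNA.2. The 3 conditions were apart, though control and siRNA.1 only just, at 9.51 against 9.47. It was at 88.4% of control with siRNA.1 (-0.18 ± 0.06, edgeR adjusted p = 0.0152) and at 81.3% with siRNA.2 (-0.30 ± 0.06, edgeR adjusted p = 8.05e-06). The siRNA.1 call was lost without control library 1 (-0.16, edgeR adjusted p = 0.0627) or 3 (-0.16, 0.0848), without siRNA.1 library 2 (-0.15, 0.0751) or 3 (-0.17, 0.0653), and in limma on FPKM (-0.15, adjusted p = 0.0633). TFAP2A-AS1 and TFAP2A-AS2, on the opposite strand, share 5.33% and 11.4% of its exonic bases and had no more than 25 and 55 counts in any library.

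PAX9, a paired-box factor of the pharynx and esophagus, was the least abundant of the 10 in the control libraries. It is at chr14:36657568-36679362 on the plus strand. Levels were 6.31, 5.57 and 5.16 FPKM in the control libraries, 3.88, 4.99 and 4.66 with siRNA.1, and 4.80, 4.80 and 4.83 with siRNA.2. The lowest control library stood above the highest siRNA library. PAX9 was at 77.9% of control with siRNA.1 (-0.36 ± 0.09, edgeR adjusted p = 4.89e-04) and at 84.2% with siRNA.2 (-0.25 ± 0.09, edgeR adjusted p = 0.0203). The siRNA.2 call was lost without control library 1 (-0.17, edgeR adjusted p = 0.232) or siRNA.2 library 1 (-0.24, 0.0615), and in limma on FPKM (-0.23, adjusted p = 0.142). SLC25A21 on the opposite strand shares 25.4% of its exonic bases and had 19 to 30 counts in the control libraries, 7 to 25 after siRNA.1 and 17 to 54 after siRNA.2.

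**Figure D2:**
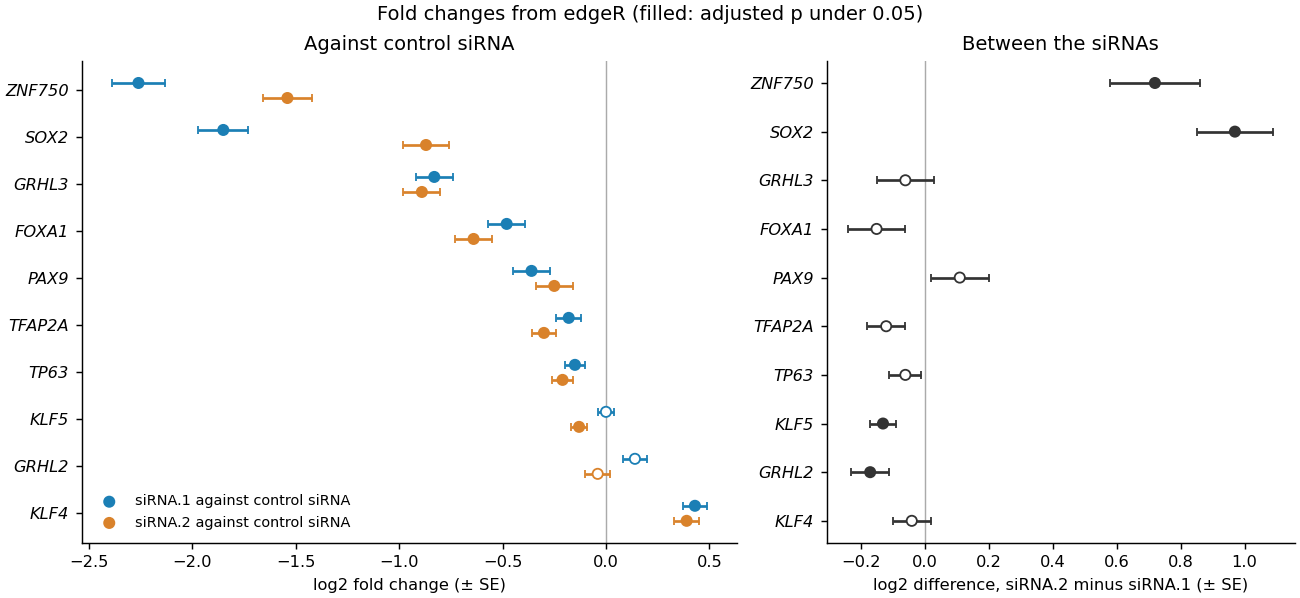
log2 fold change of each factor against control siRNA for siRNA.1 and siRNA.2 (left) and the log2 difference of siRNA.2 minus siRNA.1 (right), horizontal axes, with bars of 1 SE from edgeR and filled points where the adjusted p is under 0.05. ZNF750 and SOX2 are farthest below 0 on the left and are the 2 factors above 0 with filled points on the right.

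The siRNAs differed from each other in 4 of the 10 factors, where 12.2% of all genes tested were called (6.10% higher, 6.06% lower with siRNA.2) and 24.1% of the 8879 deeply counted genes. SOX2 was 196% of its siRNA.1 level with siRNA.2 (log2 difference 0.97 ± 0.12, edgeR adjusted p = 1.19e-13), and 6 of the 8879 genes, SOX2 included, were as far up. ZNF750 was 165% of its siRNA.1 level (0.72 ± 0.14, edgeR adjusted p = 3.88e-06), and 16 genes were as far up. LINC00885 itself did not differ detectably between the siRNAs (-1.13 ± 1.08, 95% interval -3.25 to 1.00, edgeR adjusted p = 0.624). The libraries of the siRNAs were apart in FPKM for 8 of the 10 factors, as they were for 24.4% of all genes, a share taken without regard to depth.

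GRHL2 and KLF5 went the other way, with a siRNA.2 minus siRNA.1 difference of -0.17 ± 0.06 (edgeR adjusted p = 0.0207) and -0.13 ± 0.04 (edgeR adjusted p = 0.0237). The GRHL2 call was lost without siRNA.1 library 1 or 3 or without any siRNA.2 library, at log2 differences between -0.18 and -0.15 and edgeR adjusted p between 0.0541 and 0.152. The KLF5 call was lost without siRNA.1 library 2 or siRNA.2 library 2 or 3, at log2 differences between -0.14 and -0.11 and edgeR adjusted p between 0.0577 and 0.125. For the other 6 the difference did not pass. Its 95% interval was -0.24 to 0.13 for GRHL3, -0.15 to 0.08 for KLF4, -0.16 to 0.04 for TP63, -0.34 to 0.03 for FOXA1, -0.24 to -0.00 for TFAP2A and -0.07 to 0.29 for PAX9.

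**Figure D3:**
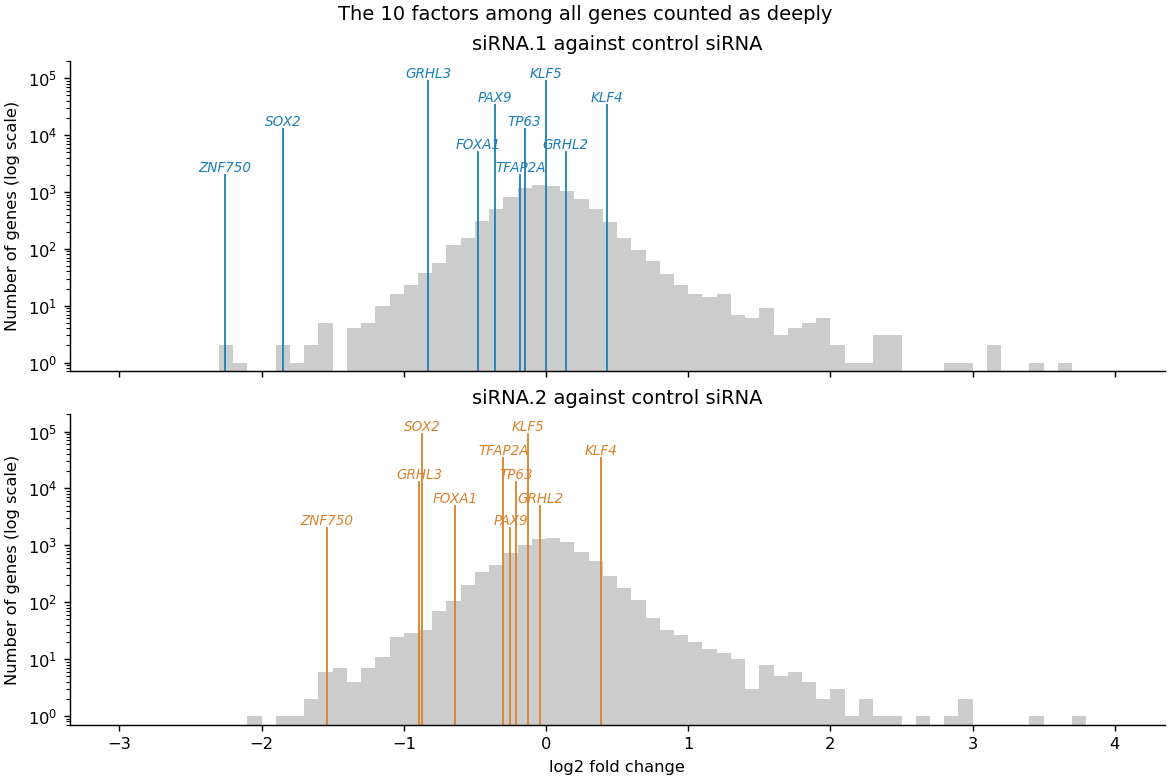
Number of genes (vertical axis, log scale) by log2 fold change (horizontal axis) for the 8879 genes averaging 267 counts or more, with a line at each of the 10 factors, for siRNA.1 (top) and siRNA.2 (bottom). ZNF750 and SOX2 sit in the far lower tail with siRNA.1, and TP63, TFAP2A, KLF5 and GRHL2 sit within the bulk of genes.

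The order of the factors' levels changed between conditions. In the control libraries it ran from KLF5 (73.5 ± 1.55 FPKM, SD, n = 3) through TP63 (21.4 ± 0.502), KLF4 (18.4 ± 0.550) and GRHL2 (16.3 ± 1.18) to SOX2 (11.7 ± 0.956), GRHL3 (10.3 ± 1.23), TFAP2A (9.51 to 10.32), ZNF750 (9.45 ± 1.07), FOXA1 (7.63 ± 0.505) and PAX9 (5.68 ± 0.583). Within that order SOX2 and GRHL3, GRHL3 and TFAP2A, and TFAP2A and ZNF750 overlapped, and the other neighbours were apart. KLF5 was higher than 97.8% of the tested genes, TP63 than 90.0% and PAX9 than 68.8%.

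With siRNA.1, KLF4 (25.2 ± 0.199 FPKM) stood above TP63 (19.7 ± 1.00), and SOX2 (3.30 ± 0.505) and ZNF750 (2.01 ± 0.127) were the lowest of the 10. GRHL3 (5.85 ± 0.560) and FOXA1 (5.56 ± 0.293) were the only neighbours that overlapped. With siRNA.2, KLF4 (24.3 ± 0.560) again stood above TP63 (18.7 ± 0.275), SOX2 (6.42 ± 0.315) stood between TFAP2A (8.23 ± 0.193) and GRHL3 (5.57 ± 0.267), ZNF750 (3.28 ± 0.355) was lowest, and no neighbours overlapped. The summed level of the 10 was 182 to 186 FPKM in the control libraries, 167 to 172 after siRNA.1 and 158 to 162 after siRNA.2. KLF5 made up 38.8% to 41.2% of it in the control libraries, 44.0% to 45.6% after siRNA.1 and 42.1% to 42.4% after siRNA.2, and KLF4 went from between 9.68% and 10.2% to between 14.6% and 15.5% over the siRNA libraries.

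Relatives of the factors with the same DNA-binding domain did not share one direction. Of 34 paralogs listed, 29 were tested, and 48.3% were called with siRNA.1 and 44.8% with siRNA.2, beside the 30.3% and 30.9% of all genes tested and the 52.2% and 53.6% of deeply counted genes given above. With siRNA.1, 9 rose and 5 fell, and with siRNA.2, 7 rose and 6 fell, with medians of -0.03 and 0.06. KLF6 rose from 19.1 FPKM to 31.8 with siRNA.1 (0.70, edgeR adjusted p = 1.62e-44) and 35.5 with siRNA.2 (0.88, edgeR adjusted p = 1.31e-70). TFAP4, counted in this list by its name though not a member of the AP-2 family, rose by 0.56 and 0.85 on the log2 scale. TFAP2E, an AP-2 gene at 0.867 FPKM in control, rose by 0.82 and 0.58.

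Within the SOX family, SOX2 was not the most abundant member. SOX15 was at 65.3 FPKM in the control libraries, with log2 fold changes of 0.21 with siRNA.1 (edgeR adjusted p = 8.19e-04) and 0.08 with siRNA.2 (edgeR adjusted p = 0.308). SOX9, a factor of progenitor epithelia and cartilage, rose from 22.3 FPKM to 34.3 and 36.6 (0.59 and 0.70, edgeR adjusted p = 4.28e-26 and 5.20e-37), while SOX2 fell from 11.7. SOX4 fell by 0.44 and 0.36 on the log2 scale and SOX7 by 0.59 and 0.49.

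TP73, a relative of TP63, fell from 2.73 FPKM to 1.78 and 1.88 (-0.65 and -0.55, edgeR adjusted p = 1.06e-06 and 2.77e-05). GRHL1 was at 5.64, 6.06 and 4.75 FPKM and fell with siRNA.2 (-0.26, edgeR adjusted p = 0.00314). TFAP2C, at 19.9 FPKM with siRNA.1 and 18.8 with siRNA.2, was more abundant than TFAP2A and did not pass with either siRNA (-0.03 and -0.10, edgeR adjusted p = 0.81 and 0.275). FOXA2 was at 0.447 FPKM and FOXA3 at 0 in the control libraries, so FOXA1 was the main FOXA gene in these cells by level.

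Of 30 other squamous and epithelial regulators, 24 were tested, of which 54.2% were called after siRNA.1 and 62.5% after siRNA.2. Of all genes tested 30.3% and 30.9% were called, and of deeply counted genes 52.2% and 53.6%. With siRNA.1, 7 rose and 6 fell, and with siRNA.2, 7 rose and 8 fell, with medians of 0.06 and -0.00. PRDM1, a zinc-finger repressor that acts in late epidermal differentiation, rose from 1.76 FPKM to 4.37 and 4.39 (1.29 and 1.32, edgeR adjusted p = 9.28e-33 and 5.40e-35). ELF3, an ETS factor of epithelia, fell from 28.8 FPKM to 22.9 and 18.3 (-0.35 and -0.66, edgeR adjusted p = 6.00e-12 and 4.24e-40). NOTCH1, the receptor that drives exit from the basal layer, fell from 6.48 FPKM to 4.79 and 4.65 (-0.46 and -0.49, edgeR adjusted p = 8.47e-12 and 2.51e-13).

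**Figure D4:**
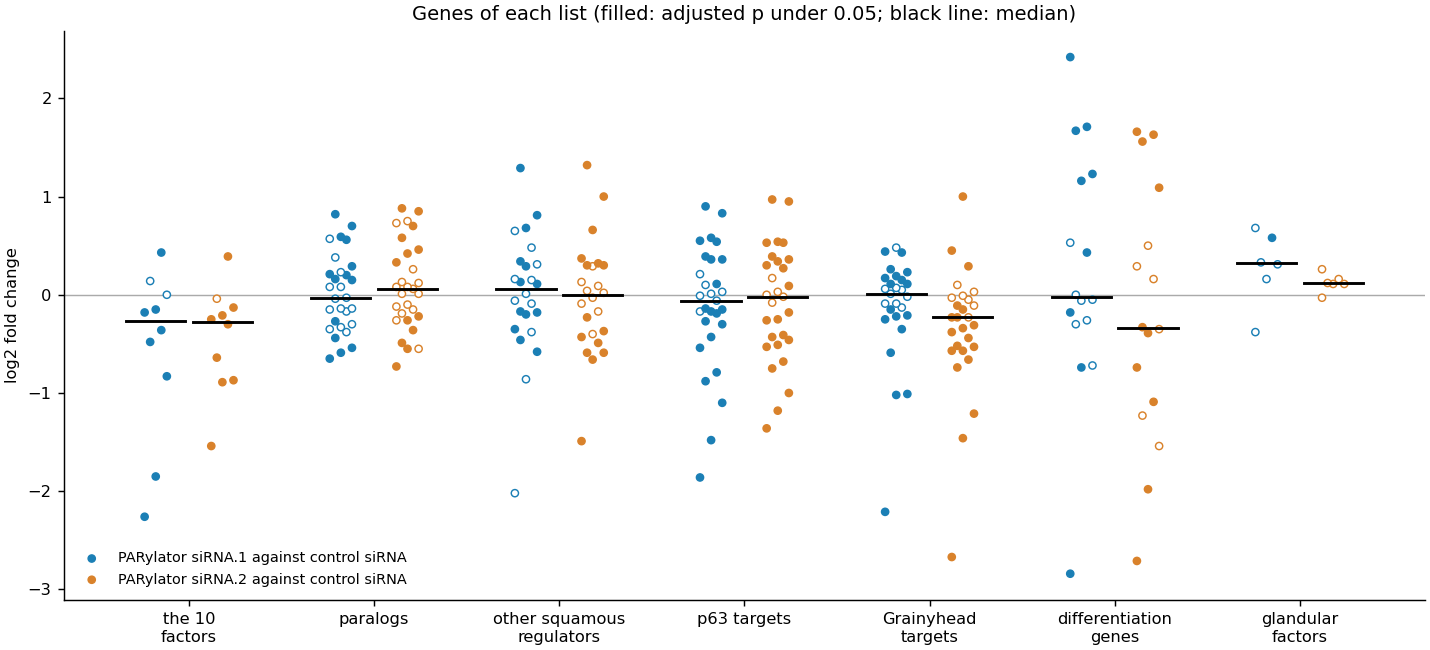
log2 fold change against control siRNA (vertical axis) of the tested genes of each list (horizontal axis) with siRNA.1 and siRNA.2, filled where the edgeR adjusted p is under 0.05, with the median of each list as a black line. The 10 factors have a median of -0.27 with each siRNA, the Grainyhead targets 0.01 and -0.23, the differentiation genes -0.03 and -0.34, and every list has genes on both sides of 0 with each siRNA.

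Genes that TP63 is known to control in basal keratinocytes moved both ways. All 29 found of a list of 30 were tested, and 75.9% were called after siRNA.1 and 82.8% after siRNA.2, beside the shares of all genes given above. With siRNA.1, 9 rose and 13 fell, and with siRNA.2, 11 rose and 13 fell, with medians of -0.06 and -0.02. KRT5, the basal keratin, fell from 142 FPKM to 40.0 and 55.8 (-1.86 and -1.36, edgeR adjusted p = 2.30e-221 with siRNA.2), and KRT15 from 3.37 to 1.24 and 1.70 (edgeR adjusted p = 6.11e-27 and 2.45e-14). FGFR3, a growth factor receptor, fell from 2.17 FPKM to 1.04 and 0.973 (-1.10 and -1.18, edgeR adjusted p = 1.57e-09 and 4.38e-11). The members that rose with both siRNAs included subunits of the basement membrane laminin, LAMA3 (0.83 and 0.97) and LAMB3 (0.55 and 0.53), and COL17A1 (0.90 and 0.95), named after their values were seen. KRT14, the partner of KRT5, also named after its values were seen, was at 9.07, 10.7 and 8.67 FPKM and did not pass (edgeR adjusted p = 0.125 and 0.652).

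Grainyhead target genes, which hold epithelial junctions and surface proteases, differed between the siRNAs. Of 27 tested, 9 rose and 9 fell with siRNA.1, with a median of 0.01, and 3 rose and 17 fell with siRNA.2, with a median of -0.23. Between the siRNAs, 1 was higher and 15 were lower with siRNA.2, with a median of -0.21 beside 0.00 over all genes. The share called was 66.7% with siRNA.1, 74.1% with siRNA.2 and 59.3% between the siRNAs. Of all genes tested 30.3%, 30.9% and 12.2% were called, and of deeply counted genes 52.2%, 53.6% and 24.1%. PROM2 fell from 10.2 FPKM to 5.10 and 3.74 (-1.02 and -1.46, edgeR adjusted p = 5.66e-36 and 8.67e-71), and CLDN3 from 10.2 to 5.15 and 4.43 (-1.01 and -1.21, edgeR adjusted p = 7.31e-10 and 5.88e-14). TJP3, averaging under 1 FPKM and named after its values were seen, fell from 1.83 FPKM to 0.400 and 0.283. Its log2 fold changes were -2.21 and -2.67 (edgeR adjusted p = 1.36e-16 and 3.25e-23). CDH1, the epithelial cadherin, was at 133, 123 and 93.3 FPKM, and PRSS8, a membrane protease, at 27.0, 31.0 and 19.0, both named after their values were seen. The siRNA.2 minus siRNA.1 difference of the Grainyhead genes themselves was -0.33 for GRHL1 (edgeR adjusted p = 2.09e-04), -0.17 for GRHL2 (edgeR adjusted p = 0.0207) and -0.06 for GRHL3 (edgeR adjusted p = 0.812).

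Many differentiation genes that KLF4 and ZNF750 are known to switch on were at or near 0 in all conditions. Of 30 listed, 16 were tested, 13 were under the filter, among them IVL, KRT4, KRT1, FLG and CRNN, picked out after their values were seen, and LOR was not found by that symbol. With siRNA.1, 6 rose and 3 fell, and with siRNA.2, 4 rose and 6 fell, with medians of -0.03 and -0.34, so that 56.2% and 62.5% of those tested were called. The shares were 30.3% and 30.9% of all genes tested and 52.2% and 53.6% of deeply counted genes. SPRR2D rose from 0.490 FPKM to 1.63 and 1.58 (1.67 and 1.63, edgeR adjusted p = 8.44e-04 and 0.001) and SPRR2A from 2.42 to 5.80 and 7.24 (1.23 and 1.56, edgeR adjusted p = 1.44e-05 and 4.94e-09). These SPRR2 genes are near-identical copies, so reads may be shared between them. SCEL, a precursor of the cornified envelope, fell from 1.69 FPKM to 1.04 and 0.430 (-0.74 and -1.98, edgeR adjusted p = 0.0018 and 2.01e-17). PPL and EVPL, which code for plakins of the envelope and were named after their values were seen, were at 22.4, 20.2 and 10.6 FPKM and at 14.0, 14.3 and 10.8 FPKM. Their siRNA.2 minus siRNA.1 differences were -0.91 and -0.39 (edgeR adjusted p = 1.39e-64 and 7.42e-10).

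Most factors of glandular lineages were under the filter on low values or did not pass the test. Of 13, 6 were tested, with medians of 0.32 and 0.12. With siRNA.1, 1 was called (16.7%), and with siRNA.2, 0 were called by edgeR, 0 had an unadjusted p under 0.05 and 0 were called by DESeq2. The edgeR shares over all genes tested were 30.3% and 30.9%. GATA4 rose with siRNA.1 from 2.61 FPKM to 3.97 (0.58, edgeR adjusted p = 2.37e-05) and was at 2.86 with siRNA.2 (edgeR adjusted p = 0.518). GATA6 was at 7.78, 8.84 and 8.48 FPKM and did not pass (edgeR adjusted p = 0.18 and 0.37), and CDX1 was at 0 throughout, these 3 also being named after their values were seen.

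For each factor, the genes whose levels over the 9 libraries were most like its own were found among 11833 genes averaging 1 FPKM or more, by Pearson correlation of log2(FPKM + 0.1). The libraries come from 3 conditions, so a high correlation mostly restates the pattern over conditions. For ZNF750 they were FBXL19 (r = 0.995), GNE (0.993) and HMGCS1 (0.992), the last 2 with log2 fold changes of -0.79 and -0.84 with siRNA.1 and of -0.55 and -0.64 with siRNA.2. For SOX2 they were SUN2 (0.986), TWF1 (0.986) and SPCS3 (0.985), whose log2 fold changes with siRNA.1 lay between -0.73 and -0.49, smaller than that of SOX2. KLF4 was most like HERC5 (0.997), IL1R2 (0.995) and IFI16 (0.995), which rose by 1.29, 1.68 and 1.09 with siRNA.1. FOXA1 was most like HNRNPH2 (0.995), SNCG (0.995) and CNOT11 (0.989), and GRHL3 most like ACO1 (0.984), YTHDF3 (0.983) and CCND1 (0.983). The highest values for the other 5 were lower, 0.974 for TP63 (SPIN1), 0.977 for KLF5 (SLC38A10), 0.965 for GRHL2 (RTKN), 0.960 for PAX9 (SPRTN) and 0.975 for TFAP2A (CBX6).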

How the data were processed

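RNA-seq of TE13 cells was grouped by the sample labels into control siRNA, PARylator siRNA.1 and PARylator siRNA.2, with 3 libraries each. The paper calls the libraries experimental repeats without stating separate transfections, so p-values measure the spread between these libraries. The authors captured poly(A)+ RNA, used STAR for alignment to GRCh38 and featureCounts for counts per gene. Versions and the strand setting are not given in the sources used here. The authors deposited raw counts, not normalized, beside FPKM, which scales the count to exonic length and to the total the library held, and the counts returned all FPKM within rounding. The authors' use of DESeq2 left no columns in the table. Every per-library column was used.

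Counts were tested with the quasi-likelihood test of edgeR 4.0.16 (R 4.3.3, TMM factors, no covariates, all 9 libraries in 1 fit) on the 21395 genes averaging 0.1 FPKM or more, adjusted over all of them by Benjamini-Hochberg, with a threshold of 0.05. SE is the absolute log2 fold change over the square root of F, and 95% intervals are 1.96 SE to each side. Levels are deposited FPKM, as mean ± SD. On simulated counts for siRNA.1 against control it recovered 191 of 200 changed genes among 21395, with 9 false calls. Recovery was not worked out by size of change or by counting depth. A share of changed genes as large as the 30.3% called with siRNA.1 was not tested. The members, lists and alternatives were chosen with earlier results of these data known. Of each list, named genes are the 3 that changed most, averaged over the siRNAs, among those called in the same direction by both and averaging 1 FPKM or more, others being marked where they appear, beside paralogs named by level. Some genes this rule names are not reported here. Alternatives were DESeq2 1.42.0, limma 3.58.1 on log2(FPKM + 0.1), with other pseudocounts and with voom, other scalings and filters, a replicate block, fewer libraries in the fit, and rows of a symbol summed. Coordinates were compared with GENCODE release 44, where GRHL3 starts farther upstream, at 24199558. Python 3.11.15 and matplotlib 3.10.9 were used for motifs and figures.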

Additional observations from a re-analysis of the deposited data

Results flagged for a closer look

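The siRNAs share a target, and 4 of the 10 factors differed between them in a direct test of siRNA.2 against siRNA.1. That test called 12.2% of all genes tested and 24.1% of the 8879 deeply counted genes. SOX2 was higher with siRNA.2 by 0.97 on the log2 scale and ZNF750 by 0.72, both calls being kept in all 22 alternatives, while both factors fell with each siRNA against control. GRHL2 differed by -0.17 and KLF5 by -0.13, and these calls were lost in 8 and 4 of 22 alternatives. The targeted LINC00885 differed by -1.13 (edgeR adjusted p = 0.624). Mitochondrial genes took 4.99% to 5.06% and 5.54% to 5.56% of the counts. The part of either in the differences was not tested.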

How the results depend on the processing

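Of 660 recomputed log2 fold changes of the factors, 621 stayed on the same side of the threshold, 32 lost a call and 7 gained one. The direction reversed in 0 cases where either fit made a call. Uncalled changes near 0 could change sign, as for KLF5 with siRNA.1, which lay between -0.02 and 0.03. The called changes of SOX2, ZNF750, GRHL3, FOXA1 and KLF4 against control were called in every alternative for both siRNAs. The number of factors called was 6 to 9 with siRNA.1, 8 to 9 with siRNA.2 and 2 to 4 between the siRNAs over the alternatives, and leaving out 1 library at a time gave the same ranges, with 2 called between the siRNAs without siRNA.2 library 2 or siRNA.2 library 3. Levels on TMM-scaled totals moved by more than the replicate SD for 1 of 30 means, KLF4 with siRNA.1, from 25.2 to 24.9 FPKM. Between the siRNAs limma on log2(FPKM + 0.1) called 1437 genes where edgeR called 2603, and the cause was not tested.

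Libraries with the same replicate number did not visibly deviate together (correlations of -0.20 to 0.11 over 9 pairs). These are deviations from means of 3 libraries, so they cannot tell whether the numbers pair the samples. With a replicate block 8, 9 and 4 factors were called, and 6215, 6359 and 2342 genes in all. Counts limit the targeted LINC00885 and SOX2-OT most, with no more than 12 and 27 in any library, and the shallowest factor, ZNF750, kept at least 103 counts in every library.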
